A study of Mus musculus with 6 samples.

Results

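Alternative acceptors are pairs of 3′ splice sites that compete for the same upstream donor, so that an exon begins at an upstream or at a downstream position. The events described here are those of the deposited splicing table whose acceptors lie any number of bases apart other than 3: every alternative 3′ splice site event whose long exon exceeded the short exon by a length other than 3 bases was taken. There were 2616 of them, 80.9% of the 3233 alternative 3′ splice site events and part of the 45595 events listed in all. They lay in 1929 genes and made 2557 distinct pairs of acceptors. The other 617 events, tandem acceptors 3 bases apart, serve only as a comparison.

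The libraries came from N2a cells (Neuro-2a, a neuroblastoma line of mouse origin): 3 from wild type cells and 3 from hnRNP DL-/- cells. The labels name no treatment, and they do not say what kind of knockout it is, whether it is 1 clone or whether the libraries of a group are separate cultures. The p-values therefore speak of the spread among these libraries and may be technical. In the table the libraries stand in 2 sets of 3 with no genotype named for either, so they are called set 1 and set 2, and each difference is set 1 minus set 2 with no genotype attached. Of 27 neuroblastoma marker genes 10 carried splicing events, with 237 to 11453 reads per gene over the 6 libraries, and of 30 markers of other cell types 3 did, with 31 to 46 reads. The events of interest gathered 598755 to 742862 junction reads per library in set 1 and 605863 to 809745 in set 2.

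The acceptor ends an intron with the bases AG. In most introns a run of pyrimidines, bound by the large subunit of U2AF, and the branch point precede it, and the small subunit of U2AF contacts the AG itself. Acceptors a few bases apart share one branch point and one pyrimidine run, whereas acceptors far apart can have a run each. Within coding sequence, a distance that is a multiple of 3 adds or removes whole codons, and any other distance shifts the reading frame. hnRNP DL belongs to the hnRNPs, proteins that bind nascent RNA and take part in splice site choice.

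The following acceptors are shown because the results turn on them: pairs with many reads on both forms, pairs called in the authors' deposited table, and pairs where one form was nearly silent. Each is written 5′ to 3′ on the strand of the gene, capitals mark the AG that ends an acceptor, and the bases after the last AG open the short exon. The sequences were read from GENCODE vM21 transcripts (GRCm38, build mm10).
Ablim1 (chr19:57047063-57047091, minus strand): catccctggttcccatctAGatgcAGctg
Gtf2i (chr5:134243585-134243614, minus strand): aaccctaatcttcAGttttcctttcAGgaa
Serbp1, pair 18 bases apart (chr6:67272130-67272159, plus strand): ttttgttAGttctttttcacattacAGtgg
Rpl13a (chr7:45127085-45127112, minus strand): acatacttttgtcctgacAGtaaAGtat
Bex3 (chrX:136271263-136271270, plus strand): aatAGcaa
Serbp1, pair 45 bases apart (chr6:67272837-67272866, plus strand): tcagaaacaaatatcttataattgcAGtga
Immt (chr6:71852736-71852765, plus strand): caggggcagctcaaattatttctgcAGcag
Hnrnpk (chr13:58392414-58392443, minus strand): atgcaagatattttttcttttttatAGtgt
Fbxl4 (chr4:22390687-22390716, plus strand): tgattctgaatcatctttcactaccAGacc
Hps3 (chr3:20030407-20030436, minus strand): gatatgttgctgtcatgtctgatttAGaag
St7 (chr6:17852231-17852260, plus strand): tgtaatttgtaatatctgaatggacAGgtg
Zfp653 (chr9:22056090-22056119, minus strand): gggtcctgaggccgctgccacctgcAGgcg
Rps27a (chr11:29546786-29546815, minus strand): taagcccagtattttttcctctaatAGgaa
Yeats4 (chr10:117220425-117220454, minus strand): tgttttcttcctcttgccccgctctAGtcg
The lines of Ablim1, Gtf2i, the closer Serbp1 pair and Rpl13a span both acceptors. The line of Bex3 is the whole stretch between its acceptors, and the other lines show the downstream acceptor only, since their stretch is longer than the run printed.

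The acceptors lay a median of 48 bases apart, with quartiles of 19 and 114 bases and a range of 1 to 7347 bases. The shortest distances were crowded. There were 107 pairs at 4 bases, 85 at 5 and 61 at 6, against 5 at 1 base and 18 at 2. A member that stood alone in its gene was the usual case: 1469 genes held 1 event and 460 held more, up to 8 in Wdr45, which encodes a WD-repeat protein of autophagy. The annotation held both junctions of 2304 events (88.1%). The upstream junction was annotated in 97.7% and the downstream junction in 88.7%. A read can belong to more than 1 event, since 1411 events (53.9%) shared a junction with a skipped-exon event of the same gene and 342 (13.1%) with each other.

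Distances that keep the reading frame were frequent where the stretch between the acceptors is coding. That stretch was annotated as wholly coding in 1629 events (62.3%), and 47.0% of those distances were multiples of 3. Elsewhere the share was 29.5% of 987 events. It came to 30.6% of 147 events in 5′ UTRs, 26.0% of 100 in 3′ UTRs, 29.3% of 273 whose stretch holds a coding start or stop, and 29.9% of 465 in transcripts or transcript parts with no coding annotation. A further 2 events had no annotated exon there. The gap between coding and other stretches was present in each class of distance that can hold a multiple of 3: 63.7% against 31.5% at 6 to 20 bases, 50.3% against 31.4% at 21 to 50, 46.7% against 25.7% at 51 to 200 and 64.4% against 34.0% above 200. The most frequent distances in coding stretches were 4 and 5 bases, which shift the frame, as the plot of events by distance shows. The class itself rests on annotated reading frames, and no test was made over events, which share genes and junctions.

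**Figure D1:**
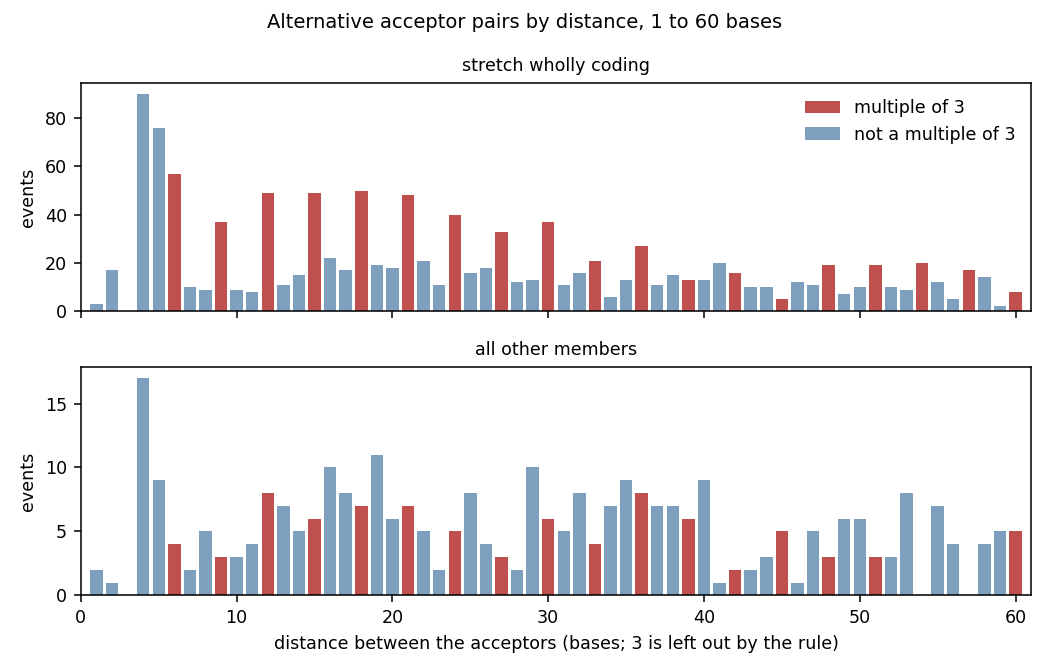
Number of alternative acceptor pairs (y axis, events) at each distance from 1 to 60 bases (x axis), for stretches annotated as wholly coding (top) and all others (bottom); red bars are multiples of 3 and blue bars other distances. In the top panel the tallest bars are blue, at 4 and 5 bases, and each red bar from 9 to 36 bases stands above the blue bars beside it.

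The downstream acceptor could be read in 2593 events. It ended in CAG in 72.0%, TAG in 16.8%, AAG in 9.8%, GAG in 1.2% and another triplet in 0.231%. The upstream acceptor could be read only in 847 events in which some annotated transcript runs through it. There CAG made up 60.6%, TAG 25.9%, AAG 10.4% and GAG 2.01%. Between acceptors 6 to 20 bases apart a further AG was rare: 88.7% of 461 pairs had none, as in the lines of Ablim1, Gtf2i and the closer Serbp1 pair. The share without one was 43.3% of 661 pairs at 21 to 50 bases and 3.3% of 819 pairs at 51 to 200.

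Acceptor use is given as a level from 0 to 1, the share of the upstream acceptor (the long exon) in the junction reads after scaling each form by its length. That length grew with distance from 149 to 298 for the long exon and was 149 for the short one. Counts of the long form may therefore include reads that cross the downstream position within the long exon, besides those on the upstream acceptor's own junction. Levels were summarised over the 2179 events that averaged at least 20 reads per library, in 1636 genes; the remaining 437 had fewer. Their median was 0.913, so the upstream acceptor was usually the main one. In 1124 events (51.6%) the mean level exceeded 0.90, in 508 (23.3%) it was under 0.10, and in 547 (25.1%) both acceptors were used. Tandem acceptors 3 bases apart differed in this description, with a median of 0.7 and both acceptors used in 72.1% of 487 events. These shares describe events of the same 6 libraries and were not tested against each other.

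The median level was high at the shortest and the longest distances and lower in between. At 1 to 5 bases the upstream acceptor dominated, with a median level of 0.974 and both acceptors used in 15.0% of 173 events. By exact distance the medians were 0.994 at 2 bases (17 events), 0.974 at 4 (87), 0.962 at 5 (65) and 0.961 at 6 (52). At 6 to 20 bases the median was 0.671, with the downstream acceptor dominant in 31.2% of 382 events. It was 0.734 at 21 to 50 bases and 0.885 at 51 to 200. Above 200 bases the upstream acceptor again dominated, with a median of 0.983 and 71.8% of 365 events above 0.90. Of the 416 longest events 174 had an annotated intron inside the stretch, so that the long exon there corresponds to a transcript that keeps an intron. The 179 tested events of any distance with such an intron had a median level of 0.993. Reads on the upstream acceptor's own junction arise whether that intron is kept or removed. This level therefore does not measure its retention.

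**Figure D2:**
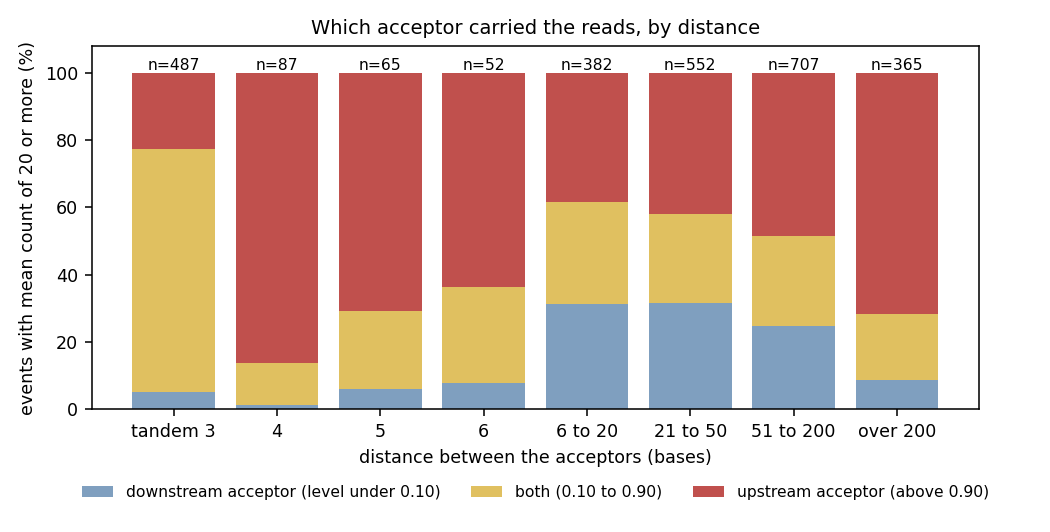
Share of events (y axis, percent of those averaging at least 20 reads per library) in which the downstream acceptor, both acceptors or the upstream acceptor carried the reads, by distance in bases (x axis; the bar for 6 bases is also part of 6 to 20). Both acceptors were used in 72.1% of tandem acceptors 3 bases apart, 12.6% at 4 bases and 30.4% at 6 to 20 bases.

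Rpl13a and Bex3 show the short distances. Rpl13a encodes a large-subunit ribosomal protein, and its coding stretch of 5 bases (chr7:45127088-45127092) lies between CAG and AAG, as printed above. The upstream acceptor took levels of 0.985, 0.989 and 0.992 in set 1 and 0.987, 0.99 and 0.989 in set 2, on 10071 to 13489 reads per library. Bex3 encodes an adaptor of the neurotrophin receptor p75. Its 5 bases in the 5′ UTR (chrX:136271263-136271267) stood at 0.951 to 0.966 in every library, on 1918 to 2460 reads. In both genes the downstream acceptor was a minor form in all 6 libraries, and the sets overlapped. Reads of ribosomal protein genes such as Rpl13a could also come from near-identical copies.

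The pairs named next, here and in the following paragraph, had the most reads on the rarer form in their distance class, which favours middle levels. Both acceptors were used in 30.4% of tested events at 6 to 20 bases and 26.4% at 21 to 50. Serbp1 encodes an RNA-binding protein found on ribosomes, and both of its pairs keep the frame. Its pair 18 bases apart (chr6:67272139-67272156, coding) stood at 0.532, 0.513 and 0.51 in set 1 and 0.548, 0.534 and 0.518 in set 2, on 3849 to 5008 reads. Its pair 45 bases apart (chr6:67272819-67272863, coding) stood at 0.315, 0.352 and 0.328 against 0.316, 0.336 and 0.304. The upstream acceptor of each ended in TAG and the downstream one in CAG, but the first pair was used evenly and the second favoured its downstream site. Gtf2i, which encodes the transcription factor TFII-I, has a CAG at both ends of a 12-base coding stretch (chr5:134243588-134243599) and stood at 0.477, 0.561 and 0.488 against 0.499, 0.492 and 0.529. The libraries of the sets overlapped in all 3 pairs.

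At 21 to 200 bases, Immt, whose product organises the cristae of mitochondria, used both sites of a 33-base coding pair (chr6:71852730-71852762), at 0.535 to 0.623 over the 6 libraries. Hnrnpk, which encodes a poly(C)-binding hnRNP, used both sites of a 60-base pair (chr13:58392417-58392476) whose stretch holds a coding start or stop, at 0.436 to 0.514 on 1033 to 1374 reads. Rpl3 encodes another large-subunit ribosomal protein, and its 180-base pair (chr15:80081032-80081211) lay near the other end of the scale, at 0.049 to 0.057 on 3636 to 5919 reads. Above 200 bases the deepest minor forms were those of Snrnp70 and Ehmt2. Snrnp70 encodes the U1 snRNP 70K protein, and its stretch of 2366 bases (chr7:45380819-45383184), without coding annotation, stood at 0.142, 0.172 and 0.178 in set 1 and 0.116, 0.161 and 0.102 in set 2. Ehmt2 encodes the histone H3 lysine 9 methyltransferase G9a, and its stretch of 300 bases (chr17:34905610-34905909), which holds an annotated intron, stood at 0.205 to 0.305. Here too the libraries of the sets overlapped in every pair.

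Where the stretch lies in the gene also went with acceptor use. Coding pairs had a median level of 0.945 and pairs of 5′ UTRs 0.542, with both acceptors used in 46.2% of 106 events in the latter. Stretches of 3′ UTRs had a median of 0.195 (76 events), and those holding a coding start or stop 0.0895 (219 events). In these the downstream acceptor was usually the main one. Stretches without coding annotation had the highest median of these classes, 0.969 (382 events). Within coding stretches, frame-keeping pairs had a median of 0.854 with both acceptors used in 36.4% of 673 events. Coding pairs of other distances had a median of 0.964 with both used in 15.5% of 721. Outside coding sequence, the share with both used was 23.6% of 233 frame-length pairs and 24.5% of 552 others.

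The triplet at the upstream acceptor went with its level in the events where it could be read. With CAG or TAG there the median levels were 0.927 (432 events) and 0.93 (193 events). With AAG it was 0.591 (66 events) and with GAG 0.198 (12 events). For AAG upstream and CAG downstream the median was 0.323 (49 events), and for the reverse order, CAG then AAG as in Rpl13a, it was 0.962 (50 events). Pairs of CAG and CAG had a median of 0.926 (297 events), and TAG then CAG, as in both Serbp1 pairs, 0.935 (136 events). The triplet of the downstream acceptor went with smaller steps, from 0.856 for TAG (356 events) to 0.905 for CAG (1555 events) and 0.961 for AAG (218 events). The 258 events whose downstream junction is absent from the annotation had a median of 0.994, against 0.849 for the 1921 in which it is annotated.

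The pyrimidine run before the downstream acceptor differed little with its use. In pairs 45 or more bases apart, pyrimidines made up a mean of 70.2% of the 17 bases from 20 to 4 before the downstream acceptor where the upstream acceptor dominated (622 pairs). The share was 70.9% where both were used (263 pairs) and 72.4% where the downstream acceptor dominated (236 pairs). The share of pairs with at least 80% pyrimidines in that window was 21.4%, 25.1% and 27.1%. In the first 17 bases of the short exon pyrimidines made up 48.5%, 46.7% and 45.5%. No test was made over pairs, and the bases before the upstream acceptor were not analysed here.

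**Figure D3:**
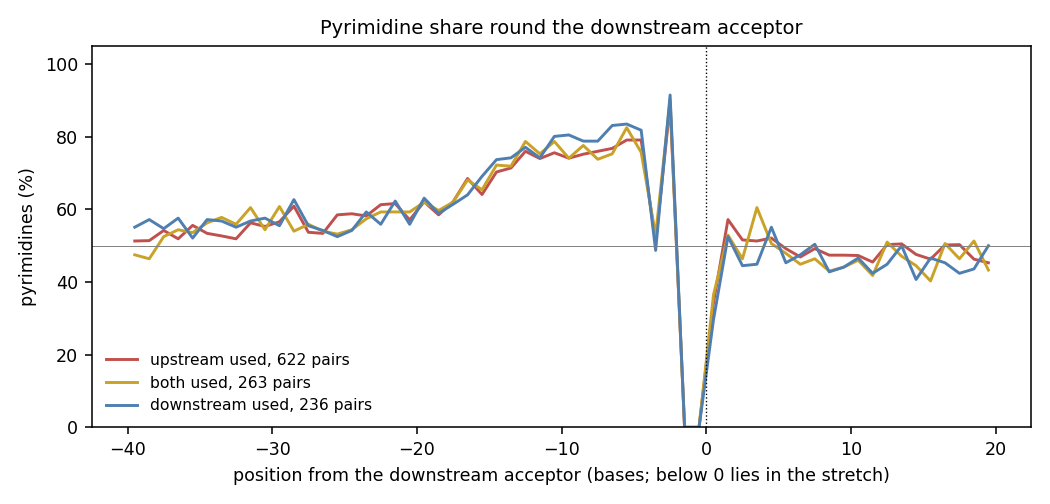
Pyrimidine share (y axis, percent of pairs) at each position from the downstream acceptor (x axis, bases), for pairs 45 or more bases apart in which the upstream acceptor, both or the downstream acceptor carried the reads. The 3 lines rise together toward the acceptor, fall to 0 at the AG, and average 70.2%, 70.9% and 72.4% from 20 to 4 bases before it.

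The comparison the design implies is whether acceptor choice differed between the sets. Summarised over all these events, the libraries of the sets overlapped. The median level per library was 0.916, 0.909 and 0.911 in set 1 and 0.91, 0.909 and 0.909 in set 2. The share of junction reads on the long form was 67.16%, 66.72% and 66.86% against 66.82%, 66.66% and 66.96%. Among the 547 events with both acceptors used, the library medians were 0.546, 0.543 and 0.533 against 0.552, 0.543 and 0.529. The set means differed by a median of 0.01 in absolute value, against 0.00833 over all events. The median range within a set was 0.032, against 0.0215 over all events. A range of single libraries and a difference of means are unlike measures. Of the tested events 1089 lay higher and 1053 lower in set 1, and 37 were equal.

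In the authors' deposited table, 10 of the 2616 events (0.382%) passed an adjusted p of 0.05 with a change in level of 0.10 or more, 4 of them higher (0.153%, against 0.357% of all events) and 6 lower (0.229%, against 0.287%) in set 1. Among all 45595 events, 294 did so in the authors' deposited table (0.645%), so the share among these acceptor pairs was no higher than the background. Of the 10, 5 averaged at least 20 reads (0.229% of 2179, against 0.434% of all such events). The moderated quasi-binomial test, which estimates the spread between libraries, called 0 of the 2179 events (0.0%) and 0 of all 39419. It gave an unadjusted p under 0.05 for 107 of the acceptor pairs (4.91%), against 3.41% of all events, 50 higher and 57 lower in set 1. Limma on logit levels called 0 as well (0.0%), and 91 had an unadjusted p under 0.05 (4.18%, against 2.97% of all events). Each of these unadjusted shares lay under 0.05, the share that the threshold alone gives when no event differs. The absence of calls does not show that no acceptor choice differed. Libraries of the sets did not overlap in 150 pairs (6.88%, against 5.55% of all events and 10.1% of tandem acceptors). Set 1 lay above in 68 (3.12%, against 3.01%) and below in 82 (3.76%, against 2.54%). In 16 of the 150 (0.734%, against 1.05%) the means also differed by 0.10 or more.

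Of the 56 pairs whose set means differed by 0.10 or more, 54 used both acceptors. This follows largely from the scale, since levels near either end leave little room for such a difference. Of all 547 pairs with both acceptors used, these 54 differed by 0.10 or more between set means (9.87%), close to the 10.2% among all events with both forms used. The median range within a set was 0.101 in these pairs, as large as the change that counts as a call. By distance, the share with an unadjusted quasi-binomial p under 0.05 was 5.2% at 1 to 5 bases, 3.4% at 6 to 20, 2.9% at 21 to 50, 6.65% at 51 to 200 and 6.03% above 200. Calls of the authors' deposited table numbered 0, 2, 5, 0 and 3 in the same classes.

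**Figure D4:**
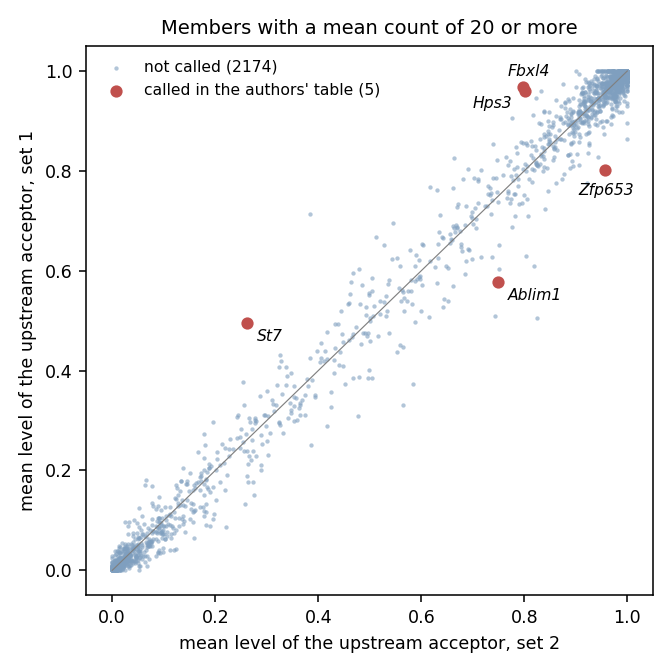
Mean level of the upstream acceptor in set 1 (y axis) against set 2 (x axis) for the 2179 tested events; each point is an event, the line marks equal levels, and red points are the 5 called in the authors' deposited table. Most points follow the line along its whole length, with St7, Fbxl4 and Hps3 above it and Ablim1 and Zfp653 below.

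Of the 5 called pairs that averaged at least 20 reads, those of Ablim1 and Hps3 keep the frame in coding sequence. Ablim1 encodes an actin-binding LIM protein. Its acceptors, TAG and CAG in the line printed above, lie 6 bases apart in coding sequence (chr19:57047066-57047071). The upstream one took 0.521, 0.57 and 0.639 in set 1 and 0.729, 0.701 and 0.817 in set 2, on 102 to 130 reads per library. All of set 1 lay below set 2, with means of 0.577 ± 0.0593 and 0.749 ± 0.0605 (SD, n = 3 each). The adjusted p was 0.0276 in the authors' deposited table and 0.738 in the quasi-binomial test. Hps3 encodes a subunit of the BLOC-2 complex, which serves the making of lysosome-related organelles. Its coding stretch of 396 bases (chr3:20030410-20030805) stood at 1.0, 0.882 and 1.0 in set 1 and 0.682, 0.855 and 0.867 in set 2, a difference of 0.159. Every library of set 1 lay above set 2, although the downstream acceptor had only 0, 4 and 0 reads in set 1 and 14, 4 and 2 in set 2. Without library 1 of set 2 the difference was 0.0997. The adjusted p was 0.0195 in the authors' deposited table and 0.738 in the quasi-binomial test.

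The largest of these 5 differences was that of St7, a gene first described as a candidate tumour suppressor. Its stretch of 1901 bases (chr6:17850357-17852257) has no coding annotation and holds an annotated intron. The level was 0.574, 0.429 and 0.48 in set 1 and 0.279, 0.235 and 0.27 in set 2, with 54, 36 and 61 reads of the long form against 34, 24 and 37 and the downstream acceptor on 20, 24 and 33 against 44, 39 and 50. The sets did not overlap, and their means differed by 0.233. The adjusted p was 0.0125 in the authors' deposited table and 0.487 in the quasi-binomial test. A skipped-exon event that shares a junction with this pair stood at 0.641 and 0.404, with an adjusted p of 0.0157 in the authors' deposited table, so these 2 calls rest in part on the same reads. Another called skipped exon of St7, which shares no junction with the pair, stood at 0.228 and 0.0843, with an adjusted p of 0.00104 in the authors' deposited table.

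Fbxl4 and Zfp653 complete the group and rest on few minor reads. Fbxl4 encodes an F-box protein of mitochondria, and its 37-base coding pair (chr4:22390677-22390713), which shifts the frame, stood at 1.0, 0.94 and 0.961 in set 1 and 0.866, 0.849 and 0.677 in set 2. Its downstream acceptor had 0, 2 and 1 reads against 4, 2 and 5, and its difference of 0.17 was 0.11 without library 3 of set 2. Zfp653 encodes a zinc finger protein, and its stretch of 436 bases (chr9:22056093-22056528), with a downstream junction absent from the annotation, stood at 0.846, 0.745 and 0.815 against 0.871, 1.0 and 1.0. Its downstream acceptor had 3, 6 and 6 reads against 2, 0 and 0. In neither gene did the sets overlap. The adjusted p was 0.0276 for Fbxl4 and 0.0126 for Zfp653 in the authors' deposited table, and 0.738 for each in the quasi-binomial test. Hps3 and Zfp653 each also carried a skipped-exon call of the authors' deposited table that shares a junction with the acceptor pair.

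The remaining 5 calls of the authors' deposited table averaged under 20 reads and were not tested here. Mid1, which encodes a microtubule-bound ubiquitin ligase, showed the widest gap, at 1.0, 0.614 and 1.0 in set 1 against 0.19, 0.081 and 0.0 in set 2, but set 1 held 1, 3 and 1 reads in all. The long form of Mid1 had 1, 2 and 1 reads in set 1 and 5, 5 and 0 in set 2, and the short form 0, 1 and 0 against 17, 45 and 22. In Mier1, a gene of a transcriptional regulator, 2 overlapping pairs 39 and 42 bases apart end at the same downstream acceptor and count shared reads. The 42-base pair stood at 0.836, 0.839 and 0.769 against 1.0, 0.934 and 1.0. Zdbf2, an imprinted gene, stood at 0.715, 0.697 and 0.807 against 1.0 in all of set 2, where no downstream read among 14 allows a share of up to 21.4%, for counting error only. Platr25, on 2 to 8 reads per library, was the only one of the 10 whose sets overlapped.

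**Figure D5:**
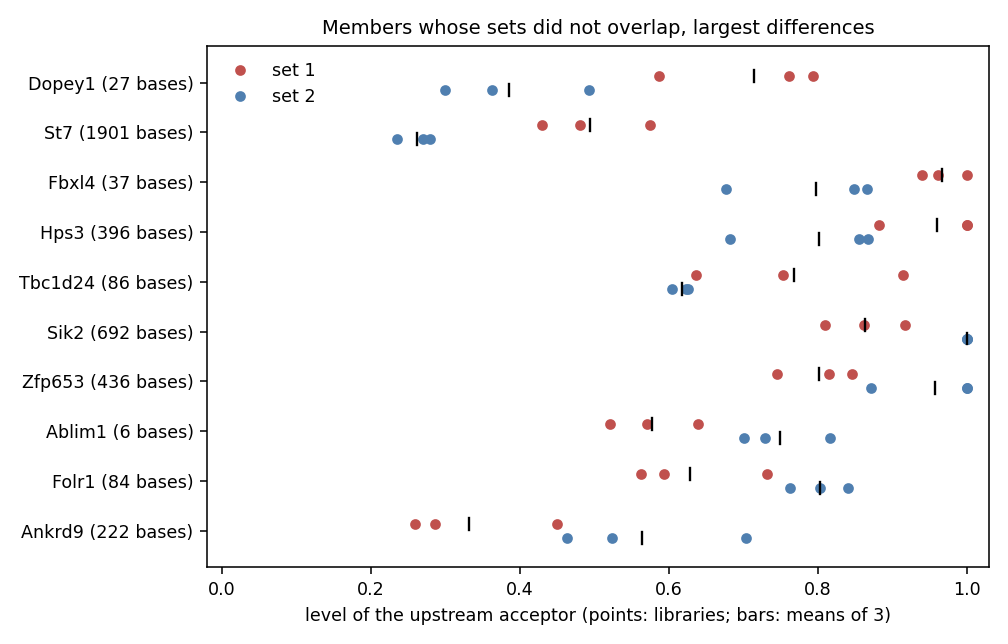
Level of the upstream acceptor (x axis, 0 to 1) in each library of set 1 (red) and set 2 (blue), with means of 3 libraries as black bars, for the 5 largest rises and 5 largest falls among tested events whose sets did not overlap; each line is a gene with the distance in bases. Dopey1 shows the widest gap, and in Ankrd9, Fbxl4, Hps3 and Tbc1d24 the libraries of 1 set lie farther apart than the means.

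Among pairs outside the calls, Dopey1 had the largest difference with no overlap. It encodes a protein of membrane traffic, and its 27-base coding pair (chr9:86501874-86501900) stood at 0.587, 0.793 and 0.761 in set 1 and 0.299, 0.362 and 0.493 in set 2, on 11 to 33 reads per library. The difference was 0.329, with an adjusted p of 0.0578 in the authors' deposited table and 0.738 in the quasi-binomial test. Tbc1d24, a gene of synaptic vesicle traffic, stood at 0.637, 0.753 and 0.915 against 0.604 to 0.626 for an 86-base pair of its 5′ UTR, a difference of 0.151 that was 0.0773 without library 3 of set 1. Lower in set 1 were an 84-base pair in the 5′ UTR of Folr1, which encodes a folate receptor, at 0.562 to 0.732 against 0.763 to 0.841, and a 222-base pair in the 5′ UTR of Ankrd9, at 0.259 to 0.45 against 0.463 to 0.704. Sik2, a salt-inducible kinase gene, used the downstream acceptor of a 692-base pair in its 3′ UTR at 4, 2 and 1 reads in set 1. It had 0 among 73 reads in set 2, which allows up to 4.11%. None of these passed the quasi-binomial test fitted with limma (adjusted p = 0.738 for each).

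Besides St7 and Ablim1, the 6 smallest p-values of the quasi-binomial test fell on 4 pairs with changes under 0.10. Rps27a encodes ribosomal protein S27a fused to ubiquitin. Its pair 472 bases apart (chr11:29546789-29547260) has a downstream junction absent from the annotation, and the downstream acceptor had 1, 6 and 6 reads in set 1 and 35, 19 and 40 in set 2, among 10554 to 13087 reads per library. The sets did not overlap, but the mean levels were 0.999 and 0.995, a difference of 0.004. The adjusted p was 0.0526 in the quasi-binomial test and 1.0 in the authors' deposited table. The quasi-binomial p was 1.33e-06 before adjustment over events of all kinds, and no adjustment within the alternative acceptor events was made. Leaving out 1 library gave an adjusted quasi-binomial p of 0.0473 (library 3 of set 1), 0.0011 (library 2 of set 2) and 0.057 to 0.277 for the others. Limma on logit levels could not compare this pair. The level of every library lay above its upper limit of 0.99, so its adjusted p of 1.0 was fixed in advance. Near-identical copies of this gene exist, and their part in these reads was not tested.

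Yeats4 lay at the other end of the scale. It encodes a reader of acetylated histones, and its 28-base coding pair (chr10:117220428-117220455) shifts the frame. The long form had 7, 2 and 6 reads in set 1 and 0, 0 and 0 in set 2, where 893 reads allow a share of up to 0.336%. The mean levels were 0.0157 and 0.0 (adjusted p = 0.618 in the quasi-binomial test). Use1, which encodes a SNARE protein of traffic to the endoplasmic reticulum, stood at 0.89, 0.887 and 0.92 against 0.944, 0.947 and 0.984 for a stretch of 126 bases (chr8:71367644-71367769). That stretch has no coding annotation and holds an annotated intron, and the junctions of the pair are not both annotated. Gtpbp2, a GTP-binding protein gene, stood at 0.923, 0.912 and 0.952 against 0.995, 0.982 and 0.963 for a coding stretch of 119 bases (chr17:46167223-46167341). Both lay lower in every library of set 1 with changes under 0.10, and neither passed the quasi-binomial test (adjusted p = 0.738 each). Both had an adjusted p of 0.0126 in the authors' deposited table, and 24 of the 2616 events (0.917%, against 1.13% of all events) passed an adjusted p of 0.05 in it when no minimum change was asked.

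Acceptor pairs in genes of RNA processing were used at many levels. The list of acceptor recognition genes held 20 such pairs in 15 of its 46 genes, all 20 tested, with 5 using both sites. Of these pairs 0 were called in the authors' deposited table, against 0.382% of all pairs and 0.645% of all events. Ptbp2, the neuronal polypyrimidine tract-binding protein, used both sites of a 15-base coding pair at 0.202 to 0.416, and Rbm39, a relative of the large U2AF subunit, used an 18-base coding pair at 0.43 to 0.543. The list of hnRNP and SR proteins held 23 pairs, 22 tested, 8 using both sites. Next to Hnrnpk, Tial1, which encodes the RNA-binding protein TIAR, used a 51-base coding pair at 0.129 to 0.285. Of 18 pairs in RNA decay genes, all tested, 5 used both sites. Pan2, a deadenylase subunit gene, stood at 0.288, 0.328 and 0.319 against 0.423, 0.329 and 0.34 for 27 bases, and Cnot2, a CCR4-NOT subunit gene, at 0.835 to 0.916 for 70 bases of its 5′ UTR. The quasi-binomial test gave 0 pairs of these 3 lists an unadjusted p under 0.05, against 4.91% of all pairs and 3.41% of all events.

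In the lists of ribosome and mitochondrial genes pairs mostly used the downstream site, though the highest levels were 1.0 and 0.998. Of 21 pairs in genes of translation and the ribosome, all tested, the median level was 0.0772 and 1 used both sites, against 0.913 and 25.1% over all pairs, and 2 had an unadjusted quasi-binomial p under 0.05 (4.91% over all pairs). Rpl10, a large-subunit ribosomal protein gene, stood at 0.009 to 0.012 on 7759 to 9055 reads for 299 bases, with counting that copies of the gene could affect. Of the other ribosomal protein genes named above, Rpl3 lay low at 0.049 to 0.057. Rpl13a and Rps27a used the upstream site, at 0.985 to 0.992 and 0.994 to 1.0. Of 12 pairs in mitochondrial genes 10 were tested, with a median of 0.0897. The mitochondrial ribosomal protein genes Mrpl55 and Mrpl4 stood at 0.172 to 0.263 for 21 bases and 0.059 to 0.108 for 106 bases. The lists were chosen with earlier results known, and no test of a list was made.

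Chromatin and DNA repair genes held pairs over most of the scale. The pairs named here were picked for reads on the rarer form, which favours middle levels. Of 30 pairs in chromatin genes 29 were tested and 13 used both sites, with a median level of 0.679. Over all pairs 25.1% used both sites, with a median of 0.913. Chd4, the helicase of the NuRD complex, stood at 0.512 to 0.605 for 39 coding bases, and Smarca4, the ATPase of SWI/SNF complexes, at 0.306 to 0.43 for 9 coding bases. Of 26 pairs in DNA damage response genes 25 were tested and 9 used both sites, with a median level of 0.785. Trp53, which encodes p53, stood at 0.228, 0.2 and 0.172 in set 1 and 0.208, 0.16 and 0.168 in set 2 for 96 bases (chr11:69591254-69591349) that hold a coding start or stop. In mouse this choice is known to give p53 an alternative carboxyl end. Fance, a gene of the Fanconi anaemia core complex, stood at 0.25 to 0.455 for 58 bases of the 3′ UTR. The quasi-binomial test gave 0 pairs of these 2 lists an unadjusted p under 0.05, against 4.91% of all pairs and 3.41% of all events.

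Pairs in genes of the cell's skeleton, of vesicles and of neurons ranged over most of the scale. Of 24 pairs in cytoskeleton genes 21 were tested, 10 used both sites and 4 had an unadjusted quasi-binomial p under 0.05, which held for 4.91% of all pairs and 3.41% of all events. Enah, which encodes an actin regulator at the leading edge, stood at 0.279 to 0.39 for 732 coding bases, and Epb41l3, a membrane skeleton gene, at 0.652 to 0.731 for 54. Of 23 pairs in vesicle traffic genes 21 were tested, with 1 such p. Picalm, a clathrin adaptor gene, stood at 0.266 to 0.367 for 15 coding bases. Synj1, a phosphoinositide phosphatase gene of synaptic vesicles, stood at 0.254, 0.223 and 0.138 against 0.101, 0.095 and 0.217 for 9. Of 17 pairs in neuronal and synapse genes 11 were tested, with 1 such p. Dlg4, which encodes the synaptic scaffold PSD-95, stood at 0.836 to 0.869 for 9 coding bases, and its partner gene Dlgap4 at 0.042 to 0.083 for 309 bases of the 5′ UTR. The neuroblastoma markers held pairs in Elavl4, which encodes the neuronal RNA-binding protein HuD, at 0.422 to 0.531 for 42 coding bases, and Isl1, a LIM homeodomain gene, at 0.938 to 0.986 for 69. In all 12 lists 0 pairs were called in the authors' deposited table, against 0.382% of all pairs and 0.645% of all events. The list of markers of other cell types held 0 pairs.

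Other kinds of splicing event were called in some of the same genes. Of the 1929 genes with an acceptor pair, 74 (3.84%) carried a call of another event in the authors' deposited table, and of 9467 genes with any such other event 246 (2.6%) did. Genes with an acceptor pair made up 30.1% of those 246, and 1929 of all 9594 genes with any event. The number of events per gene, which sets how many chances of a call a gene has, was not taken into account. Of the 9 genes of the 10 called pairs, 3 carried a further call, St7, Hps3 and Zfp653, each on a skipped exon. In Use1, which had no call at its acceptors, a skipped exon that shares a junction with the pair stood at 0.702 in set 1 and 0.866 in set 2, with an adjusted p of 0.00866 in the authors' deposited table. Another skipped-exon event sharing a junction with that pair stood at 0.936 and 0.974, a change under 0.10, with an adjusted p of 0.00434 there. Events that share a junction count some of the same reads and are not separate measurements.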

How the data were processed

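Trizol extracts of N2a total RNA went into NEBNext Ultra libraries, per the labels' protocols. The submitters' processing notes name Bowtie2 2.2.3, HISAT2 2.1.0, HTSeq 0.6.0 and mm10. The deposited table has the rMATS layout, per the file headers: comma-joined whole-number counts of junction reads and levels (fractions) for each library, a p-value and an adjusted p. Its version is not given in the sources used here, nor is its annotation. Deposited levels were recomputed to within 0.0005. The form of the downstream acceptor was scaled by a length of 149 and the other by 149 to 298.

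The 39419 events averaging at least 20 reads were tested with a quasi-binomial model in R 4.3.3. For this test limma 3.58.1 supplied only the prior of the dispersion. That dispersion, never below 1, was shrunk along a trend on the rarer form's count. The prior came from events with 5 or more such reads per library on average. Each kind of event was fitted separately, and p-values were adjusted (Benjamini-Hochberg) over all 39419. The quasi-binomial test was also run on simulated alternative acceptor events with the same spread for every event, adjusted among themselves. That run does not give the power of the test over all kinds of event. Calls needed an adjusted p under 0.05 and a change of 0.10. Limma on logit levels, limited to 0.01 to 0.99, was the other test.

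Named events were the authors' calls with a mean count of 20 or more, the 6 smallest quasi-binomial p, the 5 largest rises and falls without overlap (1 per gene), the 2 events per distance class and up to 2 per gene list with most reads on the rarer form. The calls below a mean count of 20 were added after their values were seen. The members, lists and tests were chosen with earlier results of these data known. Coordinates are 1-based. Gene IDs matched GENCODE vM21 in 9585 of 9594 cases, and sequences were joined from its transcripts, so introns that no transcript covers were not read.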

Additional observations from a re-analysis of the deposited data

How the results depend on the processing

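The quasi-binomial test called 0 acceptor pairs. Each alternative run also called 0: limma on logit levels, another prior, other count minimums, no minimum change, a change of 0.20, and each library left out in turn (range 0 to 0). Over all events, leaving out a library gave 0 to 5 calls. A prior from events with 5 or more rarer reads in all, chosen after seeing the data, called 11 of all events and 0 pairs; there Rps27a had an adjusted p of 0.000111, and among events with 5 or more rarer reads 0.0296, at a difference of 0.004. The calls of the authors' deposited table were 0 at an adjusted p of 0.01, 24 with no minimum change, 5 with a change of 0.20, 5 with a mean count of 20 and 9 without overlap. The median level of 0.913 became 0.933 without length scaling, 0.896 and 0.927 at minimum counts of 10 and 50, and 0.923 with 1 event per gene; the share with both acceptors used became 24.4%, 27.2%, 22.5% and 23.5%. Leaving out each library gave 0.911 to 0.913 and 24.7% to 25.3%. No direction was reversed. Of the differences of single pairs, 156 values stayed on their side of the threshold, and 4, all of Rps27a, crossed it. Its adjusted p was 0.0011 to 0.277 with a library left out. Limma on logit levels could not compare it, since all its levels lay above the limit of 0.99. Pairs with few reads on the rarer form limit what could be detected. No paired analysis was possible because the columns carry no replicate numbers. The planned edgeR alternative was not run, since the counts are deposited as lists within a cell.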
